A study of Drosophila melanogaster with 10 samples.

Results

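The tubulin genes of Drosophila were examined in RNA of S2 cells. The family was taken as 10 listed gene symbols, and every transcript entry that carries one of them was kept. This gave 13 entries among 30551 in the table, and 10 genes among 15240. The genes are 4 alpha-tubulin genes (alphaTub85E, alphaTub67C, alphaTub84D and alphaTub84B), 4 beta-tubulin genes (betaTub85D, betaTub97EF, betaTub60D and betaTub56D) and 2 gamma-tubulin genes (gammaTub37C and gammaTub23C). All 13 entries were above 0 in both libraries.

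Microtubules are hollow filaments built from heterodimers of alpha- and beta-tubulin, and gamma-tubulin sits in ring complexes that start new filaments at centrosomes and along existing microtubules. Flies carry several genes for each subunit. Some are used by nearly all cells, and others are known from the testis, from the oocyte and early embryo, or from particular differentiating tissues.

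The study dealt with the Polycomb protein Polyhomeotic (Ph) and its self-association. Its 10 samples form 5 groups of 2 replicates: chromatin immunoprecipitates from cells with the polymerization-defective protein Ph-ML, the same from cells with Ph-WT, an input group for each, and RNA of S2 cells that carry neither transgene. The RNA group alone was used, and the remaining 8 samples were not analysed here. S2 is a line of blood-cell character derived from fly embryos. The cells were wild type for Ph, were grown in ESF-921 medium at 27 °C and were given copper sulphate (0.5 mM, over 3 days), the treatment that switches on the transgenes in the other lines. Total RNA was cleared of ribosomal RNA and read as single ends of 50 bases. The study describes the replicates as biological, and nothing in the labels says more about how the cultures were separated. With a single group, no condition is compared, and the questions asked are which tubulin genes this cell line uses and how far the replicates differ.

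Levels are in RPKM, reads per kilobase of transcript, scaled to the size of the library, so that genes of different length can be set side by side. For a gene with several entries the level is the median over them. Errors are the SD over the 2 libraries. Because the values move in steps of whole reads, the depth could be worked back, and it came to 9495835 reads in replicate 2 and to 37054213 in replicate 1. A transcript of 1 kb with 3 reads would have 0.316 RPKM at the depth of replicate 2 and 0.0810 at that of replicate 1. Of 7 blood cell markers, 6 had a mean of at least 1 RPKM, among them the receptor genes Pvr at 71.1 ± 2.15 and crq at 30.5 ± 2.24 RPKM, while the peroxidasin gene Pxn was at 0.398 ± 0.185 RPKM (SD, n = 2 each).

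The 10 genes covered a wide range, with 1 alpha-tubulin gene and 1 beta-tubulin gene far above the rest. Of the members, 6 of 10 reached a mean of 1 RPKM, against 49.5% of all genes, and 5 of 10 reached 5 RPKM, against 29.5% of all genes. The median over the members was 5.19 RPKM, and over all genes 0.919 RPKM. The highest member lay 4433-fold above the lowest, betaTub85D. That fold is imprecise, since betaTub85D had only 1 read in replicate 2 and 5 reads in replicate 1.

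**Figure D1:**
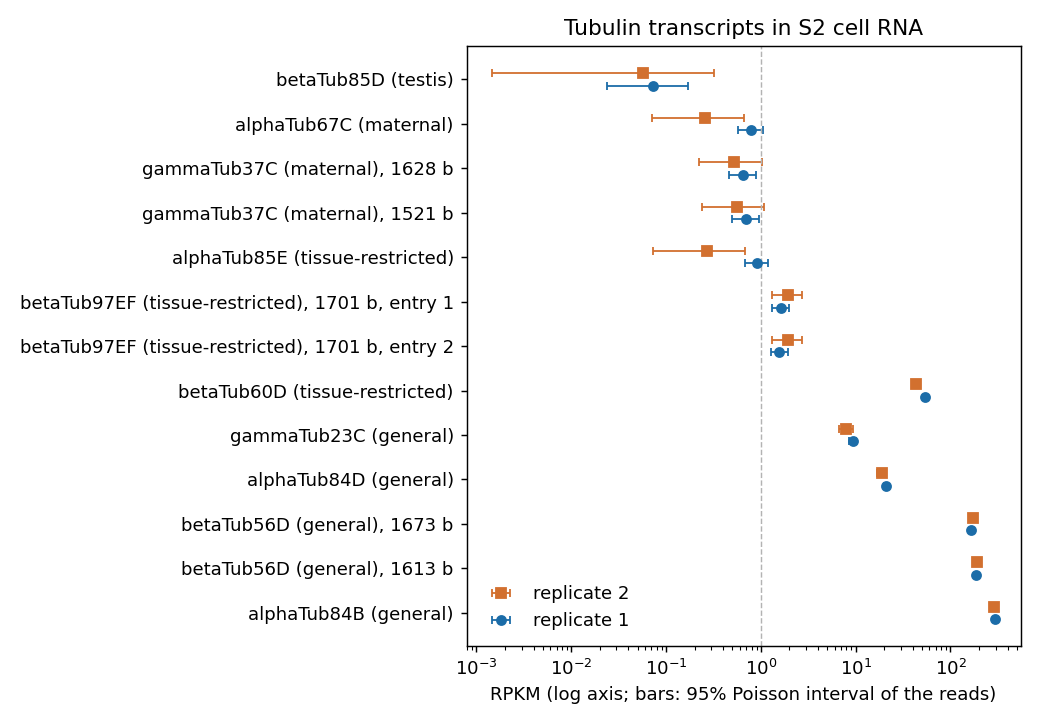
RPKM of the 13 tubulin transcript entries on a log axis, with replicate 2 as squares and replicate 1 as circles. Bars are 95% Poisson intervals of the reads (counting error only), the dashed line marks 1 RPKM, and entries of 1 gene are told apart by length in bases (b). betaTub60D, at 43.2 and 54.3 RPKM, stands among the general isotypes, and the other restricted isotypes lie below 2 RPKM.

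The testis isotype betaTub85D, which builds the spindle and the sperm tail axoneme in male germ cells, was the lowest member. It had 0.0572 RPKM in replicate 2 and 0.0733 in replicate 1, which correspond to 1 read and 5 reads. The 95% Poisson intervals were 0.00145 to 0.319 RPKM in replicate 2 and 0.0238 to 0.171 RPKM in replicate 1. The single read of replicate 2 is under the level of 3 reads on this transcript, 0.172 RPKM, so that the gene was barely detectable at this depth. On the entries with the most reads, betaTub56D exceeded betaTub85D 3360-fold in replicate 2 (exact 95% interval 603 to 132763) and 2515-fold in replicate 1 (1077 to 7746). The other testis genes measured were low too: none of 10 markers reached 1 RPKM, 5 of them were listed at 0 in both libraries, and their summed level was 0.302 RPKM in replicate 2 and 0.866 in replicate 1.

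The maternal isotypes were both under 1 RPKM. alphaTub67C, a divergent alpha-tubulin of the egg that serves meiosis and the first nuclear divisions, had 0.261 RPKM in replicate 2 and 0.784 in replicate 1. These levels rest on 4 reads in replicate 2 and 47 reads in replicate 1. gammaTub37C, the gamma-tubulin of the ovary and early embryo, had 0.536 RPKM in replicate 2 and 0.669 in replicate 1, from 8 and 39 reads. Its log2 ratio to the general gammaTub23C was −2.58 ± 0.06 on the log2(RPKM + 1) scale (SD, n = 2). At this level the ratio and its SD are set largely by the pseudocount of 1, and with 0.1 the ratio was −3.64. On the reads, gammaTub23C exceeded gammaTub37C 15.4-fold in replicate 2 (exact 95% interval 7.59 to 36.3) and 14.3-fold in replicate 1 (10.4 to 20.4). These folds were taken on the gammaTub37C entry of 1628 bases. In RNA of a whole culture, fewer cells that express a gene and less of its RNA in each cell cannot be told apart.

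Genes known from the female germline did not form 1 level in these cells. Of 9 markers, 3 reached 1 RPKM: gus at 21.2 ± 1.56, the piRNA pathway gene aub at 5.05 ± 0.13 and piwi at 1.37 ± 0.10 RPKM (SD, n = 2). The defining germ plasm and patterning genes were lower, with osk at 0.677, nos at 0.323, vas at 0.0877 and bcd at 0.0736 RPKM. Any link between these markers and the levels of alphaTub67C and gammaTub37C was not tested.

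The 3 tissue-restricted isotypes differed widely from each other. betaTub60D, known from developing muscle and other differentiating tissues, had 43.2 RPKM in replicate 2 and 54.3 in replicate 1, averaging 48.7 ± 7.84 RPKM (SD, n = 2). It was the third highest tubulin gene, at rank 451 of 15240 genes, above the general genes alphaTub84D and gammaTub23C. On the median levels, betaTub56D exceeded betaTub60D 4.23-fold in replicate 2 and 3.21-fold in replicate 1. The reads were taken from the most-read entry of betaTub56D, of 1613 bases. There the fold was 4.45 in replicate 2 (exact 95% interval 4.14 to 4.78) and 3.39 in replicate 1 (3.28 to 3.51). The 2 intervals do not overlap. Among 5 muscle markers only the transcription factor gene Mef2, at 1.83 ± 0.11 RPKM, reached 1 RPKM. The myosin heavy chain gene Mhc was at 0.0859 RPKM, and the troponin gene up was listed at 0 in both libraries.

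betaTub97EF, a beta-tubulin known from the gut, had 1.92 RPKM in replicate 2 and 1.59 in replicate 1, from 31 and 102 reads. alphaTub85E, known from muscle and from support cells of the peripheral nervous system, had 0.267 RPKM in replicate 2 and 0.908 in replicate 1, from 4 and 53 reads. Of 5 neuron markers, elav had 2.83 ± 0.73 RPKM (SD, n = 2) and the other 4 were under 1 RPKM.

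The general isotypes held 4 of the 5 highest levels. alphaTub84B, the main alpha-tubulin of most fly cells, had 286 RPKM in replicate 2 and 293 in replicate 1, averaging 289 ± 5.04 RPKM at rank 123 of all genes. betaTub56D, its beta-tubulin counterpart, had 183 RPKM in replicate 2 and 174 in replicate 1, averaging 179 ± 6.13 RPKM at rank 158. gammaTub23C, the gamma-tubulin of somatic centrosomes, had 7.96 RPKM in replicate 2 and 9.28 in replicate 1. alphaTub84D, which encodes a protein nearly identical to that of alphaTub84B, had 18.8 RPKM in replicate 2 and 20.8 in replicate 1. alphaTub84B thus exceeded alphaTub84D 15.2-fold in replicate 2 (exact 95% interval 13.6 to 17.0) and 14.1-fold in replicate 1 (13.4 to 14.9). How reads that align to both genes were assigned is not given in the sources used here. The split between the 2 genes is therefore uncertain, as are their levels and the totals and ratios that include them.

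Summed over classes, the testis isotype made up 0.0106% of the tubulin RPKM in replicate 2 and 0.0132% in replicate 1. The maternal isotypes made up 0.147% and 0.262%, the tissue-restricted isotypes 8.38% and 10.2%, and the general isotypes 91.5% and 89.5%, in replicates 2 and 1 in that order. The general share averaged 90.5 ± 1.39% (SD, n = 2). Most of the tissue-restricted share was betaTub60D, since the 3 genes summed to 45.4 RPKM in replicate 2 and 56.8 in replicate 1.

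On the log2(RPKM + 1) scale, each restricted alpha or beta gene was set against the general gene of its subunit. The ratio was −7.40 ± 0.06 for betaTub85D, −7.60 ± 0.33 for alphaTub67C and −7.54 ± 0.39 for alphaTub85E. It was −6.03 ± 0.07 for betaTub97EF and −1.86 ± 0.28 for betaTub60D (SD, n = 2 each). For the genes under 1 RPKM these ratios are set largely by the pseudocount of 1. The difference between betaTub60D and the other 4 genes was several times the SD of any of them. The pseudocount also shrinks the SD of the genes under 1 RPKM. The restricted gamma gene gammaTub37C, at −2.58 ± 0.06, lay nearer to betaTub60D than these 4 genes did.

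The beta-tubulin genes together had 228 RPKM in replicate 2 and 230 in replicate 1, and the alpha-tubulin genes 305 and 315 RPKM. Their ratio, beta over alpha, was 0.748 in replicate 2 and 0.730 in replicate 1, a log2 ratio of −0.44 ± 0.02 (SD, n = 2). The SD does not cover the unknown handling of reads shared by alphaTub84B and alphaTub84D. As protein, both subunits enter the dimer in equal numbers. The gamma-tubulin genes summed to 8.49 RPKM in replicate 2 and 9.95 in replicate 1, so that alpha and beta together were 62.8-fold and 54.8-fold above them.

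**Figure D2:**
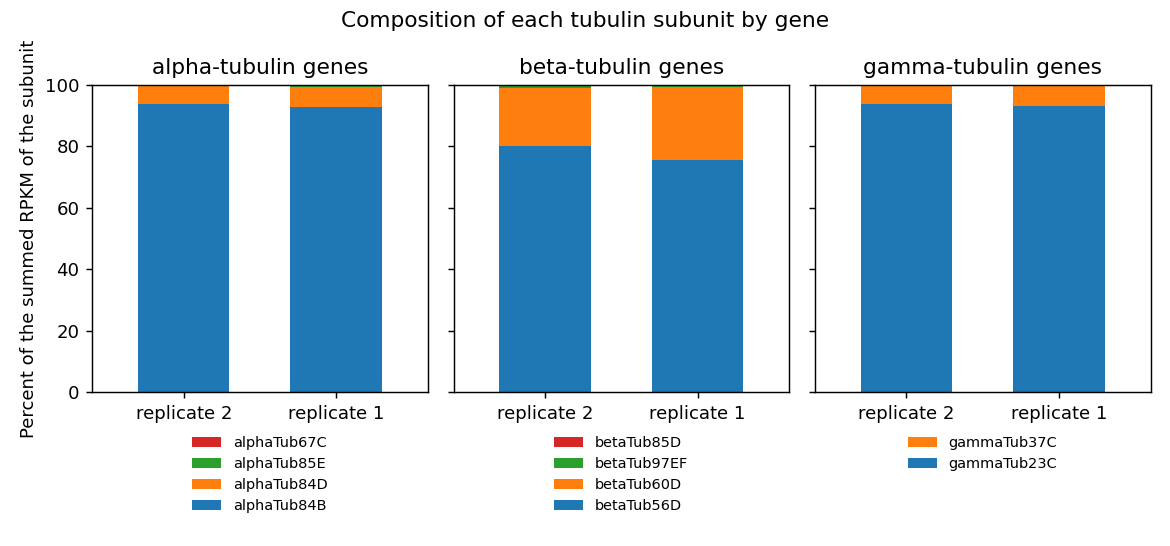
Share of each gene in the summed RPKM of its subunit, in percent, for replicate 2 and replicate 1. alphaTub84B holds 93.7% and 92.9% of the alpha total and gammaTub23C 93.7% and 93.3% of the gamma total, while betaTub60D takes 18.9% and 23.6% of the beta total.

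A single general gene dominated 2 of the 3 subunits. Of the alpha total, alphaTub84D held 6.17% in replicate 2 and 6.59% in replicate 1, and alphaTub84B nearly all of the rest. Of the gamma total, gammaTub37C held 6.31% in replicate 2 and 6.73% in replicate 1. The beta total was divided more evenly, with betaTub60D at 18.9% in replicate 2 and 23.6% in replicate 1, and betaTub56D at 80.2% and 75.7%.

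Ordered by mean level, the genes ran from alphaTub84B down through betaTub56D, betaTub60D, alphaTub84D, gammaTub23C, betaTub97EF, gammaTub37C, alphaTub85E and alphaTub67C to betaTub85D. The ranges over the libraries overlapped for 2 of the 9 neighbouring pairs, gammaTub37C with alphaTub85E and alphaTub85E with alphaTub67C. The means of these 3 genes were 0.603 ± 0.094, 0.588 ± 0.453 and 0.523 ± 0.371 RPKM, so that they do not differ beyond their spread. Without replicate 2, gammaTub37C fell below both alpha genes, and the rest of the order was kept. The widest step between neighbours was 8.01-fold, from betaTub85D up to alphaTub67C.

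Genes with 2 entries allowed a comparison of transcripts, which share reads and are not independent. For betaTub56D, the entry of 1613 bases had 192 RPKM in replicate 2 and 184 in replicate 1, and the entry of 1673 bases had 173 and 164 RPKM. The shorter entry thus held more reads, by 187 in replicate 2 and 843 in replicate 1. For gammaTub37C, the entries of 1521 and 1628 bases had the same reads, 8 in replicate 2 and 39 in replicate 1, and differ in RPKM through their length alone. The entries of betaTub97EF, both of 1701 bases, had 31 reads each in replicate 2, and 99 and 102 reads in replicate 1. These lengths and reads were recovered from the RPKM.

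The replicates were then compared gene by gene, to find out which tubulin levels varied beyond counting error. The reads of the most-read entry of each gene were set against the library sizes with an exact two-sided binomial test, with Benjamini-Hochberg adjustment over 11075 genes above 0 in both libraries. This compares these 2 libraries and covers counting error only. The recovered reads are the smallest that fit the RPKM, so that some genes may have more reads than were tested. The numbers of genes called, and of genes with many reads, may therefore be too low. Of the members, 1 of 10 passed an adjusted p of 0.05, against 12.1% of all genes tested, 1339 genes of which 844 were higher in replicate 2 and 495 in replicate 1.

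**Figure D3:**
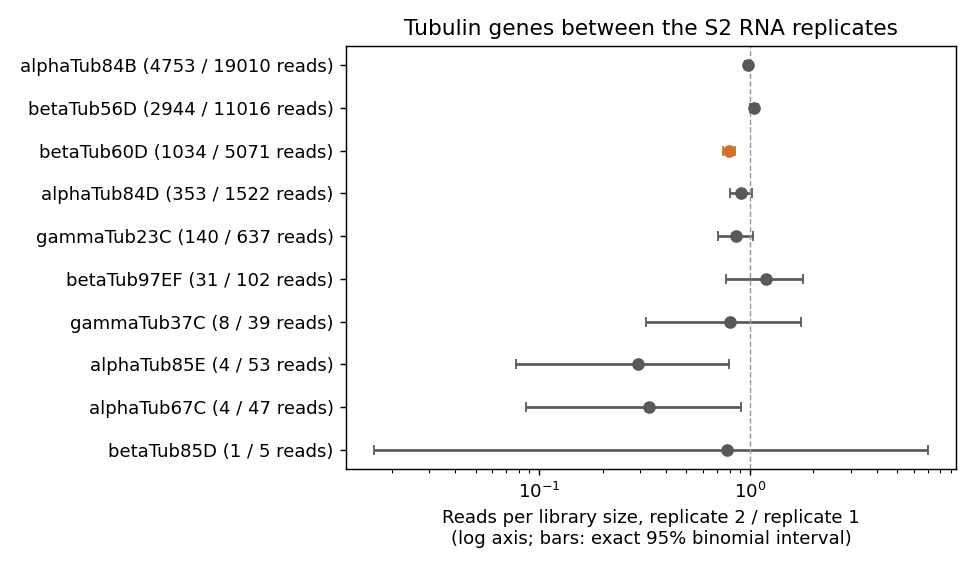
Reads per library size in replicate 2 over replicate 1 for the 10 tubulin genes, on a log axis, with exact 95% binomial intervals and the reads of replicate 2 and replicate 1 in the labels. The coloured point, betaTub60D at 0.796, is the gene past an adjusted p of 0.05, and the intervals widen as reads become few.

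The gene that passed was betaTub60D, with 1034 reads in replicate 2 and 5071 in replicate 1. Its ratio of replicate 2 to replicate 1 was 0.796 (exact 95% interval 0.744 to 0.851, adjusted p = 3.13e-10 by the exact binomial test). A difference of this size is found more easily in genes with many reads: of 2385 genes with at least 1000 reads, 874 passed the same test, and 103, or 4.32%, had a ratio at or below that of betaTub60D. The other 3 tubulin genes with at least 1000 reads lay closer to 1, at 0.976 for alphaTub84B, 1.04 for betaTub56D and 0.905 for alphaTub84D.

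The low alpha genes had the smallest ratios but few reads. alphaTub85E had a ratio of 0.295 (exact 95% interval 0.0774 to 0.800, adjusted p = 0.0642 by the exact binomial test). alphaTub67C had a ratio of 0.332 (0.0869 to 0.908, adjusted p = 0.137 by the same exact test). Both intervals lie below 1, and both genes missed the threshold after adjustment over all genes tested. Before adjustment 4 members were under 0.05, these genes, betaTub60D and betaTub56D. On the log2(RPKM + 1) scale, 0 of 10 members were more than 2-fold apart, against 0.518% of all genes. With a pseudocount of 0.1 in place of 1, 2 of 10 were, and 1372 of all genes in place of 79.

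The partners of tubulin were read from lists of genes known to act with it. Their counts at 1 and 5 RPKM stand against 49.5% and 29.5% of all genes. The chaperonin CCT folds new alpha- and beta-tubulin, and all 8 of its subunit genes were above 5 RPKM, with a median of 50.6 RPKM. They ran from T-cp1 at 89.9 ± 1.85 RPKM through Cctgamma at 58.3, Tcp-1zeta at 56.6, CG8258 at 51.2, Tcp-1eta at 50.1, CG5525 at 46.6 and CG7033 at 46.3 down to Cct5 at 27.9 ± 3.94 RPKM. Between the replicates 5 of 8 passed the test, all higher in replicate 2, against 12.1% of all genes tested and 874 of the 2385 genes with at least 1000 reads, as all 8 have. Calls leaned to replicate 2 over all genes too, 844 against 495. Their ratios ran from 1.18 for CG8258 to 1.27 for Cctgamma.

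The 5 tubulin cofactors, which assemble the dimer after CCT, were all above 1 RPKM and 4 of them above 5 RPKM. CG1890, the cofactor A gene, had 27.6 ± 0.78 RPKM, TBCB 20.9 ± 1.08, CG7261 (cofactor D) 10.4 ± 0.90, tbce 9.03 ± 0.85 and CG31961 (cofactor C) 4.28 ± 0.65 RPKM (SD, n = 2). None of the 5 passed the exact test between the replicates, with the lowest adjusted p at 0.186 for CG7261. Among all genes tested 12.1% passed, so that none among 5 does not set the cofactors apart.

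The genes for the other proteins of the gamma-tubulin ring complex had lower mean levels than gammaTub23C, which was at 8.62 ± 0.93 RPKM (SD, n = 2). The range of l(1)dd4 over the libraries, 7.785 to 8.253 RPKM, overlapped that of gammaTub23C, 7.956 to 9.277 RPKM. l(1)dd4, which encodes Grip91, had 8.02, Grip75 7.41, Grip71 6.66, Grip84 5.65, Grip163 2.42 and Grip128 1.73 RPKM. All 6 of these genes thus exceeded gammaTub37C, at 0.603 RPKM. The 8 augmin genes, which bring the ring complex to spindle microtubules, all exceeded 1 RPKM, from wac at 17.5 to dgt4 at 2.24 RPKM.

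**Figure D4:**
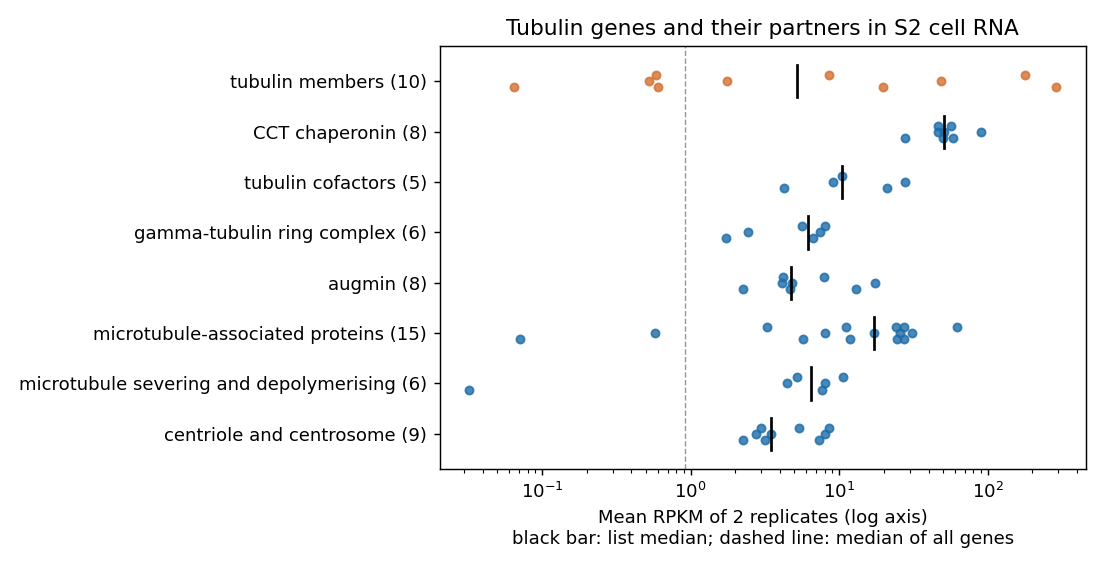
Mean RPKM over the replicates, on a log axis, of the 10 tubulin genes (top) and of 7 lists of their partners, 1 point a gene, with the number of genes in brackets. Black bars mark list medians, from 50.6 RPKM for CCT to 3.48 RPKM for centriole and centrosome genes, and the dashed line the median of all genes, 0.919 RPKM.

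Of 15 genes for microtubule-associated proteins, 13 exceeded 1 RPKM and 12 exceeded 5 RPKM, against 49.5% and 29.5% of all genes. The plus-end protein gene Eb1 was the highest at 62.3 ± 4.35 RPKM, and the axonal gene tau the lowest at 0.0707 RPKM. Among 6 genes for severing and depolymerising proteins, 5 exceeded 1 RPKM, with the kinesin gene Klp10A highest at 10.6 and its relative Klp59C lowest at 0.0323 RPKM, from 1 read in each library. All 9 centriole and centrosome genes exceeded 1 RPKM, from cp309, which encodes the pericentrin-like protein Plp, at 8.55 to sas-6 at 2.24 RPKM. Between the replicates, 7 of the 15 microtubule-associated genes passed the exact test (4 higher and 3 lower in replicate 2), as did 2 of the 6 severing and depolymerising genes (both lower) and 3 of the 9 centriole genes (1 higher, 2 lower), and none of the ring complex or augmin genes. These counts stand against the same 12.1% of all genes tested and 874 of 2385 genes with at least 1000 reads. The tubulin family held both the highest gene, alphaTub84B, and a member, betaTub85D, that was lower than all but Klp59C among the partners.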

How the data were processed

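Total RNA of S2 cells, depleted of ribosomal RNA, was sequenced in 2 libraries, and the authors aligned the reads with TopHat to release 5 of the fly genome. The deposited values are RPKM per RefSeq transcript for each replicate. The program behind them, its handling of multiply aligned reads and its use of strand are not given in the sources used here.

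Library sizes, transcript lengths and reads were recovered from the steps in the RPKM. Whole reads (within 0.002) came out for 99.9% of 23661 entries above 0 in both libraries. For each entry the smallest length that gave whole reads in both libraries was taken. Where the true length and reads share a common factor, the recovered reads are only a fraction of the true reads. The share of such entries was not determined, and for them the binomial test is less sensitive. All member entries matched the Release 6 name table. Its positions were also read to look up neighbouring genes, but no result given here rests on them. The log2 ratios and the counts of genes more than 2-fold apart are on log2(RPKM + 1), unless another pseudocount is named. All other folds and ratios are plain ratios of RPKM or of reads, without a pseudocount. The binomial test is exact and two-sided. With 1 group there is no test across samples. The recovery was tested on simulated data. Python 3.11.15, NumPy 2.4.6, pandas 2.3.3, SciPy 1.17.1 and matplotlib 3.10.9 were used.

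Members and lists were chosen with earlier results of these data known. The genes named are all 10 members, every gene of the CCT, cofactor and ring complex lists, the highest and lowest gene of each other partner list, and cell type markers. Intervals hold counting error alone, because PCR copies of a molecule could not be told apart. Alternatives were other gene levels (highest entry or mean), pseudocounts, thresholds, scaling and filters, and leaving out each replicate.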

Additional observations from a re-analysis of the deposited data

How the results depend on the processing

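Of the values for the main comparisons under the alternatives, 61 stayed within their spread or limits and 13 moved, none with a change of direction. Many of the 61 could not have moved. With 2 replicates, a mean taken without either of them always stays within its SD. No member has more than 2 entries, so the mean over entries equals the median. The count of 61 is therefore no test of how firm the values are. The pseudocount set the ratios of the low genes to the general gene of their subunit. With a pseudocount of 0.1 they were −10.08 for betaTub85D, −9.00 for alphaTub67C, −8.89 for alphaTub85E, −6.59 for betaTub97EF and −3.64 for gammaTub37C. With no pseudocount, an alternative chosen after seeing the data, they were −11.43, −9.32, −9.20, −6.67 and −3.84 in the same order. Taking the highest entry of a gene gave −7.47 for betaTub85D and −0.38 for the log2 ratio of beta to alpha totals. The number of tubulin genes more than 2-fold apart between the replicates was 2 with a pseudocount of 0.1, and that of all genes was 1372, against 79. betaTub60D was the only tubulin gene past the threshold under every alternative run, with adjusted p from 2.35e-11 to 3.49e-10 by the exact binomial test. For alphaTub85E the adjusted p ranged from 0.0515 to 0.0695, and for alphaTub67C from 0.110 to 0.149. The number of all genes called was 1209 to 1407. No paired analysis was possible because every value reported comes from the single RNA group. Depth limits betaTub85D, alphaTub67C and alphaTub85E most, with 1, 4 and 4 reads in replicate 2.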
